A study of Homo sapiens with 10 samples.

Results

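The genes described here are 9 human genes of interferon signalling, antiviral defence and antigen presentation that have been linked to p53, the tumour suppressor that nutlin-3a activates. They are IRF1, IRF3, IRF7, IRF9, STAT2, ISG15, IFITM3, TRIM22 and TAP1, taken by symbol from the tables of both assays, and each is 1 of the 11258 transcripts listed in both. The rule goes by symbol and sets no cut on a measured value. The 9 genes were, however, chosen with earlier results of these data known, so the counts below describe them and test nothing. Of the 9 genes, 8 were among the 7015 transcripts that reached 5 FPKM in 1 or more libraries of RNA-Seq and also of Ribo-Seq, which are called expressed genes below, and these 8 passed that filter with their control libraries alone. IRF7 was below it in the RNA-Seq libraries, so its values are given but it is left out of the counts.

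The cells were BJ, human foreskin fibroblasts immortalised by expression of hTERT, the catalytic subunit of telomerase. An untreated control and cells kept for 2, 4, 6 or 19 h on nutlin-3a, which blocks the binding of MDM2 to p53, were each profiled by RNA-Seq of poly(A) RNA and by Ribo-Seq, the sequencing of mRNA pieces covered by ribosomes. The labels name no interferon treatment, and hTERT was shared by all groups, the control included. With 10 libraries for 10 groups, there was no replicate check and no p-value, a time cannot be told apart from the handling of its single library, and the labels name no sequencing run. The intervals below are 95% intervals of counting error alone, from read numbers that the steps between FPKM values give back, in which PCR copies cannot be recognised. A gene is said to have risen or fallen only where its value differed from the control library of the same assay by at least 1.5-fold.

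Type I interferon signals through a receptor and the JAK kinases to STAT2, which joins IRF9 in the complex ISGF3. ISGF3 binds the interferon-stimulated response element (ISRE) of genes such as ISG15 and IFITM3, while the shorter GAS element serves the response to interferon-gamma. IRF3 and IRF7 switch on the interferon genes themselves when viral nucleic acid is sensed, IRF1 acts on antigen presentation genes such as TAP1, and p53 binds elements of its own in the DNA of its targets.

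The promoters were read from RefSeq on build GRCh38.p14, to show which of the genes carry the letters of these elements beside their start. Windows of 300 bases, from 250 before to 50 after a start of transcription, were at hand for 6 of the 9 genes, IRF1, IRF9, STAT2, ISG15, IFITM3 and TAP1. The ISRE core was searched as a pair of GAAA with any 2 bases between them and the GAS element as TTC and GAA with any 3 bases between them, on both strands, and 3.57% and 7.66% of all 35116 promoter windows held them. The 150 bases before the start are printed for the 5 genes with a match there, 5′ to 3′ on the strand of the gene, with each match in capitals. They are chr5:132490774-132490923 (minus strand) for IRF1, chr14:24161115-24161264 (plus) for IRF9, chr1:1013347-1013496 (plus) for ISG15, chr11:320861-321010 (minus) for IFITM3 and chr6:32853705-32853854 (minus) for TAP1.
IRF1, GAS match: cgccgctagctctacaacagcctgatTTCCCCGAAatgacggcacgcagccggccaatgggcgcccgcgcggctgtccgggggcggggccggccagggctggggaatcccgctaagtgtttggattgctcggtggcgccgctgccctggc
IRF9, GAS match: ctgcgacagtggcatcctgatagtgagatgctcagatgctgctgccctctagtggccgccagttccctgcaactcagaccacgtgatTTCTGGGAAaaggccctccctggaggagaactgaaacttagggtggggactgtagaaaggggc
ISG15, ISRE core matches: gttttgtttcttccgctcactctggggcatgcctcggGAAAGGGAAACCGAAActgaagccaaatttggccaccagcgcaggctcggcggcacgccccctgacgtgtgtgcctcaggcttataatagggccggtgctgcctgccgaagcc
IFITM3, ISRE core matches: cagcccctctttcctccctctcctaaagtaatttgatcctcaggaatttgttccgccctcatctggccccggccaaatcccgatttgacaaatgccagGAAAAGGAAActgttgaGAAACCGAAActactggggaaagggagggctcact
TAP1, ISRE core matches: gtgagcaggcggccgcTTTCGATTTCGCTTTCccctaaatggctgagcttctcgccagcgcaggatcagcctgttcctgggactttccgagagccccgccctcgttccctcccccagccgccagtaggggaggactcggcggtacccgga

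ISG15 held 2 overlapping ISRE cores, with first bases at -113 and -107 from the start, and IFITM3 held 2 separate ones at -52 and -35. TAP1 held 2 overlapping cores at -134 and -128 that read on the opposite strand, and a GAS match lay at -189 from its second start, outside the stretch printed. IRF1 had a GAS match at -124 and IRF9 at -63, each without an ISRE core, and the STAT2 window held neither motif. The p53 element was searched as a pair of sites, each with its core C(A/T)(A/T)G intact, and up to 3 mismatches at the other bases of the pair. A match was in none of the windows of the 6 genes, nor in those of CDKN1A and MDM2, against 4.49% of all windows. An element with a changed core, or outside these windows, could not be found this way. A match is a description of letters and not a bound site, and the lack of a match says only that these letters are not in this window.

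The libraries responded to nutlin-3a and looked like fibroblasts. CDKN1A, a p53 target whose product p21 halts the cell cycle, had 68.6 FPKM of RNA untreated and 1316 FPKM at 19 h, and MDM2 had 14.9 and 259 FPKM. The read totals by which FPKM were scaled, worked out from the steps between the values, were 23846000 to 27554000 for RNA-Seq. For Ribo-Seq they were 7745000 (19 h) to 14461000 (4 h). They are not the numbers of reads sequenced, which the paper lists as larger for the control, 6 h and 19 h and does not list for 2 h and 4 h. All 10 fibroblast markers were expressed, with a summed RNA level of 8875 to 11464 FPKM, and 3 of them rose in RNA at 19 h, beside 7.13% of all expressed genes. The leukocyte markers summed to 1.31 to 1.67 FPKM of RNA over the 4 of 7 that were listed, the endothelial ones to at most 0.377 and the epithelial ones to at most 0.103 FPKM in any library. In bulk RNA, fewer cells with a transcript and less of it per cell cannot be told apart.

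Before treatment the 9 genes spanned a wide range of RNA levels per length. IFITM3 led with 285 FPKM, followed by ISG15 (32.0 FPKM), STAT2 (24.2 FPKM), IRF3 (24.1 FPKM), TAP1 (18.2 FPKM), IRF9 (15.9 FPKM), TRIM22 (12.8 FPKM), IRF1 (5.66 FPKM) and IRF7 (2.72 FPKM). Neighbours in this order differed beyond counting error except STAT2 and IRF3. By 19 h TRIM22 had moved from the seventh place to the second at 79.7 FPKM, and ISG15 and STAT2 were next to each other at 52.4 and 50.6 FPKM, a difference within counting error.

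At 19 h RNA of 4 of the 8 expressed genes had risen and none had fallen. At 2 h only IRF1 had risen, 1 of 8 beside 2.08% of all expressed genes. At 4 h TRIM22 and TAP1 had risen (2 of 8, against 3.51%), at 6 h STAT2 joined them (3 of 8, against 5.74%), and at 19 h ISG15 made 4 of 8, against 7.13%. None of the 8 fell at any time, where 0.214%, 3.58%, 11.6% and 14.6% of all expressed genes did at 2, 4, 6 and 19 h. With the 2 h library in place of the control, IRF9 also rose, making 5 of 8 at 19 h, against 8.04%. The median log2 change of RNA at 19 h was 0.57 over the 8 genes and -0.07 over all expressed genes.

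Ribosome density, the Ribo-Seq level of a transcript, had risen for 5 of the 8 genes at 6 h and at 19 h. None of the 8 had risen at 2 h, where 6.96% of all expressed genes had. At 4 h IRF9, ISG15 and TRIM22 had risen (3 of 8, against 10.4%), and at both 6 h and 19 h the risen genes were IRF9, STAT2, ISG15, TRIM22 and TAP1 (5 of 8, against 15% at 6 h and 15% at 19 h). None fell, against 2.72%, 3.26%, 19% and 29.8% of all expressed genes at 2, 4, 6 and 19 h. The median density of all expressed genes itself moved, by 0.10 at 4 h and by -0.19 at 19 h on the log2 scale. Relative to that median the density of TRIM22 was 1.91-fold of control at 4 h, while IRF9 and ISG15 stood at 1.48-fold and 1.45-fold and no longer passed the threshold. At 19 h the same correction left the 5 genes between 1.90-fold (IRF9) and 5.00-fold (TRIM22). With the 2 h library in place of the control, 3 of the 8 genes (ISG15, TRIM22 and TAP1) had risen at 19 h, against 8.71% of all expressed genes.

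**Figure D1:**
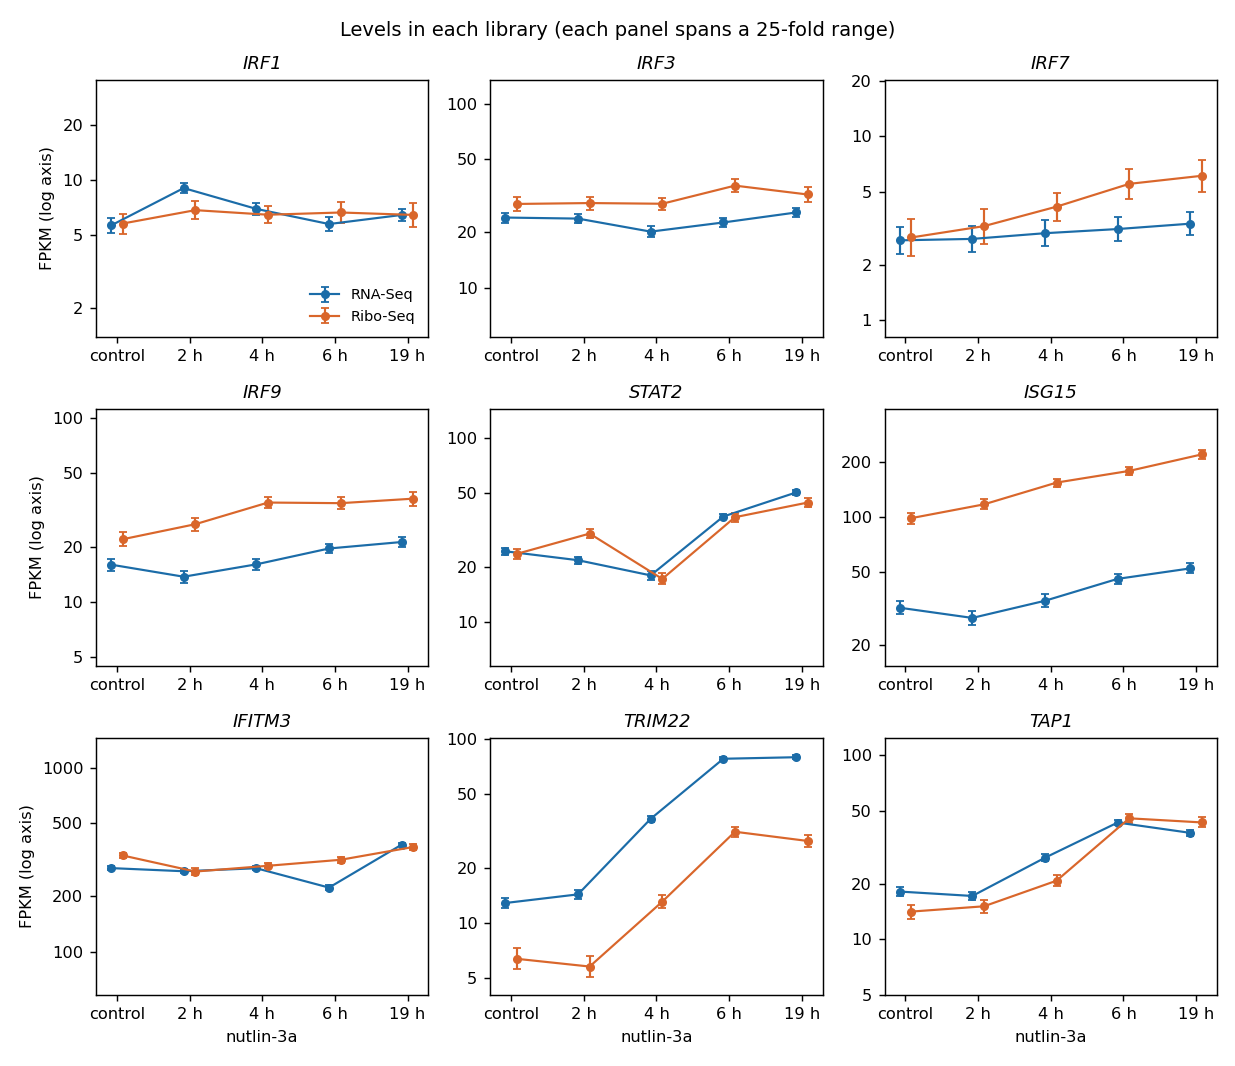
Level of each of the 9 genes in each library in FPKM on a log axis, RNA-Seq in blue and Ribo-Seq in orange, for the control and 2, 4, 6 and 19 h of nutlin-3a, with bars for the 95% counting interval. TRIM22 and TAP1 climb between 2 h and 6 h in both assays, STAT2 is lowest at 4 h in both, ISG15 lies higher in Ribo-Seq than in RNA-Seq throughout, and IRF7 climbs in Ribo-Seq more than in RNA-Seq.

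Among the transcription factors that start an interferon response, IRF1 showed a brief rise. IRF1 (ENSG00000125347) had RNA levels of 5.66 FPKM in the control and 9.04, 6.96, 5.76 and 6.46 FPKM at 2, 4, 6 and 19 h. The 2 h library was the highest, at a log2 change of 0.68 (0.52 to 0.84), a 1.60-fold rise, which was the 120th highest of the 7015 expressed genes. The log2 change was 0.30 (0.13 to 0.47) at 4 h and 0.19 (0.02 to 0.36) at 19 h, both short of the threshold. Ribosome density of IRF1 was 5.80 FPKM in the control and 6.86, 6.47, 6.66 and 6.46 FPKM at the 4 times. Its largest log2 change of density was 0.24, at 2 h, and each of its 4 density intervals reached 0.

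IRF3, the sensor-activated factor that is present in most cells before infection, had values close together in all libraries. IRF3 (ENSG00000126456) lay between 20.2 FPKM (4 h) and 25.7 FPKM (19 h) of RNA, with 24.1 FPKM in the control. Its ribosome density was 28.6, 28.9, 28.6, 36.0 and 32.2 FPKM in the order of time. The density at 6 h was 1.26-fold of control, with a log2 change of 0.33 (0.17 to 0.50), short of the threshold. The gene overlaps BCL2L12 in the RefSeq annotation, and strand use in counting was not given in the sources used here.

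IRF7 amplifies the interferon response and is itself an interferon-stimulated gene. IRF7 (ENSG00000185507) had the lowest RNA of the 9 genes, at 2.72, 2.77, 2.97, 3.13 and 3.35 FPKM in the order of time, from 133 to 179 reads. Its ribosome density was 2.82 FPKM in the control and 3.25, 4.15, 5.52 and 6.11 FPKM afterwards, from 68 to 123 reads a library. Each density lay above the one before, though of these 4 steps only that from 4 h to 6 h exceeded counting error. At 19 h the density was 2.17-fold of control (log2 1.12, 0.67 to 1.56), while RNA was 1.23-fold with an interval that reached 0 (log2 0.30, -0.02 to 0.63). IRF7 had the widest intervals of the 9 genes, and it is outside all counts.

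STAT2 and IRF9, both subunits of ISGF3, differed in course. STAT2 (ENSG00000170581), the subunit that carries the activation domain, had 24.2 FPKM of RNA in the control and 21.6, 17.9, 37.4 and 50.6 FPKM at 2, 4, 6 and 19 h. Ribosome density of STAT2 was 23.4 FPKM in the control and 30.2, 17.1, 37.1 and 44.6 FPKM. Both assays had their lowest value at 4 h and their highest at 19 h. At 6 h RNA of STAT2 was 2.09-fold and its density 2.17-fold of the level at 4 h, each step beyond counting error. Against the control the log2 change of RNA was -0.44 (-0.53 to -0.34) at 4 h, 0.63 (0.55 to 0.71) at 6 h and 1.06 (0.98 to 1.14) at 19 h. The rise at 19 h was 2.09-fold for RNA and 1.90-fold for density.

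IRF9 (ENSG00000213928), the subunit that recognises the ISRE, passed the threshold in density and not in RNA against the control. Its RNA was 15.9, 13.7, 16.0, 19.5 and 21.2 FPKM in the order of time, and the highest value, at 19 h, was 1.33-fold of control (log2 0.41, 0.27 to 0.55). Its density was 21.9, 26.5, 34.7, 34.5 and 36.5 FPKM, with all 4 treated libraries above the control and the last 3 close together. At 19 h the density was 1.66-fold of control (log2 0.73, 0.55 to 0.91). With the 2 h library in place of the control this turned around, with a log2 change at 19 h of 0.63 in RNA, past the threshold, and of 0.46 in density, short of it.

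Of 15 listed genes of interferon signalling (receptors, kinases, STATs and inhibitors) 10 were expressed, and STAT2 was the 1 whose RNA rose at 19 h while none fell, beside 7.13% and 14.6% of all expressed genes, with a median log2 change of 0.00 against -0.07 for all expressed genes. SOCS3, an inhibitor of JAK kinases chosen for mention after its values were seen, rose in RNA at 2 h, from 11.6 to 26.6 FPKM, and was at 9.92 FPKM at 19 h. In the IRF family 4 of 9 listed genes were expressed and none rose in RNA at 19 h, beside the same 7.13%, while 1, IRF9, did with the 2 h library in place of the control. None of the 6 expressed nucleic acid sensing genes of 13 listed rose or fell in RNA at 19 h, beside the same 7.13% and 14.6%, with a median of 0.20. In density at 19 h 2 of the signalling genes rose (STAT2 and IRF9) and 1 fell, beside 15% and 29.8% of all expressed genes. For the IRF family 1 rose (IRF9 again) and none fell, and for nucleic acid sensing 1 rose and 1 fell, beside the same shares.

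Among the effectors TRIM22 had the largest change of the 9 genes. TRIM22 (ENSG00000132274) encodes an antiviral ubiquitin ligase that restricts retroviruses. Its RNA was 12.8 FPKM in the control and 14.3, 36.8, 78.2 and 79.7 FPKM at 2, 4, 6 and 19 h. The 2 h value lay near the control, the next 2 steps up were 2.58-fold and 2.12-fold, and the values at 6 h and 19 h did not differ beyond counting error. The log2 change was 2.61 (2.51 to 2.71) at 6 h and 2.64 (2.54 to 2.74) at 19 h, or 6.21-fold, the 15th and the 17th highest of all expressed genes. Ribosome density went from 6.37 FPKM in the control to 5.78, 13.0, 31.3 and 27.9 FPKM, which was 4.38-fold at 19 h (log2 2.13, 1.91 to 2.35).

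ISG15 encodes a ubiquitin-like protein that is joined to other proteins after interferon. ISG15 (ENSG00000187608) had 32.0 FPKM of RNA in the control and 28.2, 34.9, 46.0 and 52.4 FPKM afterwards. Its RNA had risen 1.64-fold at 19 h (log2 0.71, 0.56 to 0.86) and stood at 1.44-fold at 6 h, short of the threshold. Ribosome density was 98.4, 117, 154, 178 and 219 FPKM in the order of time, higher at every step beyond counting error. At 19 h it was 2.22-fold of control (log2 1.15, 1.03 to 1.28).

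IFITM3, a membrane protein that blocks the entry of viruses, was the most abundant of the 9 transcripts in every library and passed the threshold at no time. IFITM3 (ENSG00000142089) had RNA levels of 285, 274, 284, 223 and 382 FPKM, lowest at 6 h and highest at 19 h, a 1.71-fold step between those libraries. Against the control RNA was 1.34-fold at 19 h (log2 0.42, 0.37 to 0.47). Ribosome density was 334, 273, 293, 316 and 371 FPKM. Only reads with a single hit were kept, so reads that IFITM3 shares with its close paralogs were lost. IFITM2 had 121 FPKM of RNA in the control, 92.7 FPKM at 6 h and 137 FPKM at 19 h, with the 6 h library lowest as for IFITM3, while IFITM1 had 58.7 FPKM at 6 h and 66.6 FPKM at 19 h, against 53.8 FPKM in the control. In density IFITM1 fell, from 55.7 FPKM in the control to 33.8 FPKM at 6 h and 34.4 FPKM at 19 h. IFITM2 had a density of 291 FPKM in the control, 305 FPKM at 6 h and 239 FPKM at 19 h.

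Interferon-stimulated genes were also counted as a list. The list holds TRIM22, ISG15 and IFITM3, so its counts are not apart from these genes. TRIM22 and ISG15 are among those that rose at 19 h in RNA and in density. Of 57 listed, 29 were expressed, and at 19 h RNA of 4 rose (TRIM22, PML, TRIM5 and ISG15) and of 2 fell (OAS3 and PLSCR1), beside 7.13% and 14.6% of all expressed genes, with a median log2 change of 0.16. PML, the scaffold of nuclear bodies, went from 9.94 to 18.2 FPKM, and TRIM5, a retroviral restriction factor named after its values were seen, went from 13.4 to 23.9 FPKM. OAS3, which makes the 2-5A that activates RNase L, went from 8.24 to 3.99 FPKM, and PLSCR1, a scramblase, from 12.4 to 6.69 FPKM. In density 8 of the 29 rose and 7 fell at 19 h, beside 15% and 29.8% of all expressed genes, with a median of 0.05 against -0.19 for all expressed genes. Against the 2 h library 4 rose, beside 8.71%, and 4 fell, for which the share of all expressed genes was not worked out. A further 24 of the listed genes were in both tables but below the filter, where their highest RNA level had a median of 2.54 FPKM.

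TAP1, a subunit of the transporter that carries peptides into the endoplasmic reticulum for loading on MHC class I, rose in both assays. TAP1 (ENSG00000168394) had 18.2 FPKM of RNA in the control and 17.2, 27.8, 43.1 and 37.9 FPKM at 2, 4, 6 and 19 h. Its ribosome density was 14.1, 15.1, 20.8, 45.5 and 43.2 FPKM. In both assays the 2 h library lay near the control and the 6 h library was highest. The log2 change of RNA was 1.25 (1.15 to 1.34) at 6 h and 1.06 (0.97 to 1.16) at 19 h, and that of density was 1.69 (1.54 to 1.84) and 1.61 (1.46 to 1.77). At 19 h this was 2.09-fold in RNA and 3.06-fold in density. TAP1 overlaps the antisense gene PSMB8-AS1 in RefSeq, and reads of the pair could be split only with strand.

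TAP2 and PSMB9, genes of the same route, had RNA values below control where TAP1 rose. TAP2, the other subunit of the transporter, fell from 11.6 to 7.57 FPKM of RNA at 19 h, a log2 change of -0.61, while its density was 8.06 and 7.95 FPKM. PSMB9, an immunoproteasome subunit named after its values were seen, starts 488 bases from TAP1 on the opposite strand. Its RNA was 12.8 FPKM in the control and 8.59 FPKM at 19 h, and its density 43.3 and 25.4 FPKM, where TAP1 rose in both. Of 25 listed antigen presentation genes 19 were expressed, and TAP1 was the 1 that rose and TAP2 the 1 that fell in RNA at 19 h, beside 7.13% and 14.6% of all expressed genes, with a median of 0.14. In density 8 rose and 1, PSMB9, fell, beside 15% and 29.8%, with a median of 0.35 against -0.19 for all expressed genes. Relative to the median of all expressed genes, 3 of the 19 rose in RNA, beside 9.14% of all expressed genes. None of the 19, TAP2 included, fell in RNA or in density in that setting, for which the share of all expressed genes that fell was not worked out. Against the 2 h library RNA and density each rose for 3 of the 19, beside 8.04% and 8.71%, and the fall of TAP2 was lost with that baseline and with a pseudocount of 1 FPKM.

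**Figure D2:**
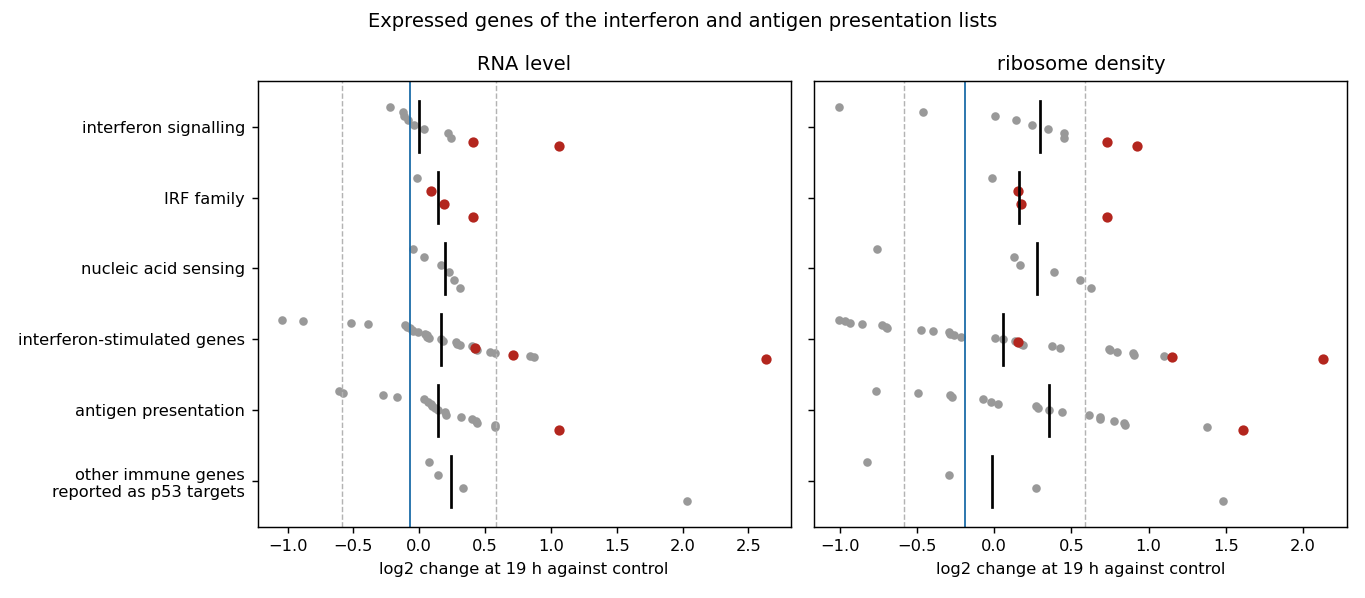
Log2 change at 19 h of RNA (left) and of ribosome density (right) for each expressed gene of the lists. Each gene has 1 point in every list that holds it. The 8 expressed genes of the 9 are in red, and IRF7 is not drawn. A black bar is the median of a list, a blue line the median of all expressed genes, and dashed lines mark 1.5-fold. STAT2, TRIM22 and TAP1 lie at the upper end of their lists in both panels, and PSMB9 and TAP2 at the lower end of the antigen presentation list in RNA.

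RNA and density can be set side by side as relative translation efficiency (TE), the log2 ratio of the Ribo-Seq to the RNA-Seq level of a gene. Of the 8 genes 1, IRF9 at 4 h, rose in TE against control, beside 9.24% of all expressed genes at that time. At 2, 6 and 19 h none of the 8 rose in TE, against 5.39%, 13.3% and 9%, and none fell at 2, 4, 6 or 19 h, against 1.78%, 0.713%, 12.3% and 15.6%. The median TE of all expressed genes moved by 0.18 at 4 h, and relative to it IRF9 was at 1.39-fold of control instead of 1.58-fold, below the threshold, while TRIM22 was at 0.630 and passed it. At 19 h TAP1 was at 1.53-fold relative to the median.

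The 9 genes differed in the level of TE. ISG15 had the highest TE in every library, with a Ribo-Seq level 3.07-fold of its RNA-Seq level in the control and 4.17-fold at 19 h, above 98.0% and 99.3% of expressed genes or equal to them. TRIM22 had the lowest, at 0.497 in the control and 0.350 at 19 h. As the FPKM is per length of the whole transcript, genes with short untranslated parts gain in this ratio, and these levels are compared between genes with that limit. Against its own control TRIM22 was lower in TE at 4 h (log2 -0.49, -0.74 to -0.24), at 6 h (-0.31, -0.54 to -0.08) and at 19 h (-0.50, -0.75 to -0.26), none past the threshold as deposited. These values also rest on the control library. At 2 h TRIM22 was at -0.30 (-0.60 to 0.01), and its step from 2 h to 4 h was -0.19 (-0.44 to 0.06).

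TAP1 had a log2 change of TE of 0.18 (-0.03 to 0.38) at 2 h, 0.44 (0.26 to 0.61) at 6 h and 0.55 (0.37 to 0.73) at 19 h. ISG15 and IRF9 were above control in TE at all 4 times, at 0.33 to 0.52 for ISG15 and 0.32 to 0.66 for IRF9, beyond counting error each time. These values rest on the control library. Against the 2 h library the log2 change of TE at 4, 6 and 19 h was 0.08, -0.10 and 0.01 for ISG15 and 0.17, -0.13 and -0.17 for IRF9. STAT2 was above it at 2 h (0.53, 0.37 to 0.68), while its intervals at 4, 6 and 19 h held 0. IRF1 was below it at 2 h (-0.43, -0.73 to -0.14), the time at which its RNA was highest. IRF7 had 0.77 (0.22 to 1.31) at 6 h and 0.81 (0.26 to 1.37) at 19 h.

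**Figure D3:**
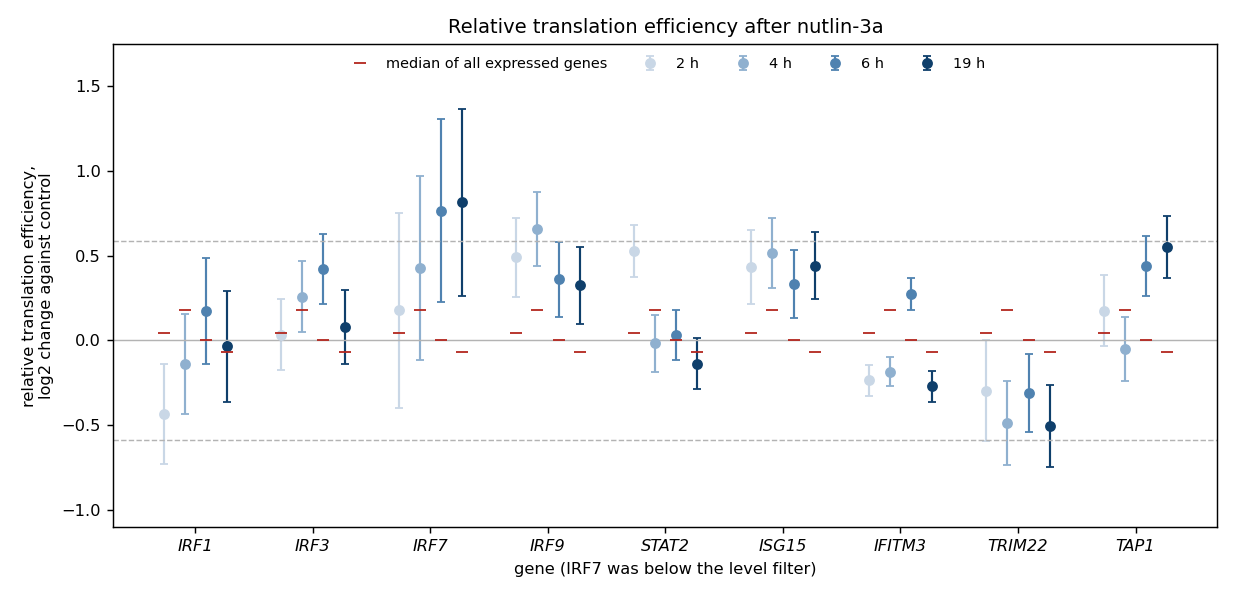
Log2 change of TE against control for each of the 9 genes at 2, 4, 6 and 19 h (light to dark), with bars for the 95% counting interval, red ticks for the median of all expressed genes at that time and dashed lines at 1.5-fold. All 4 points of ISG15 and IRF9 lie above 0, those of TRIM22 lie below 0, and the points of IRF7 have the widest bars.

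**Figure D4:**
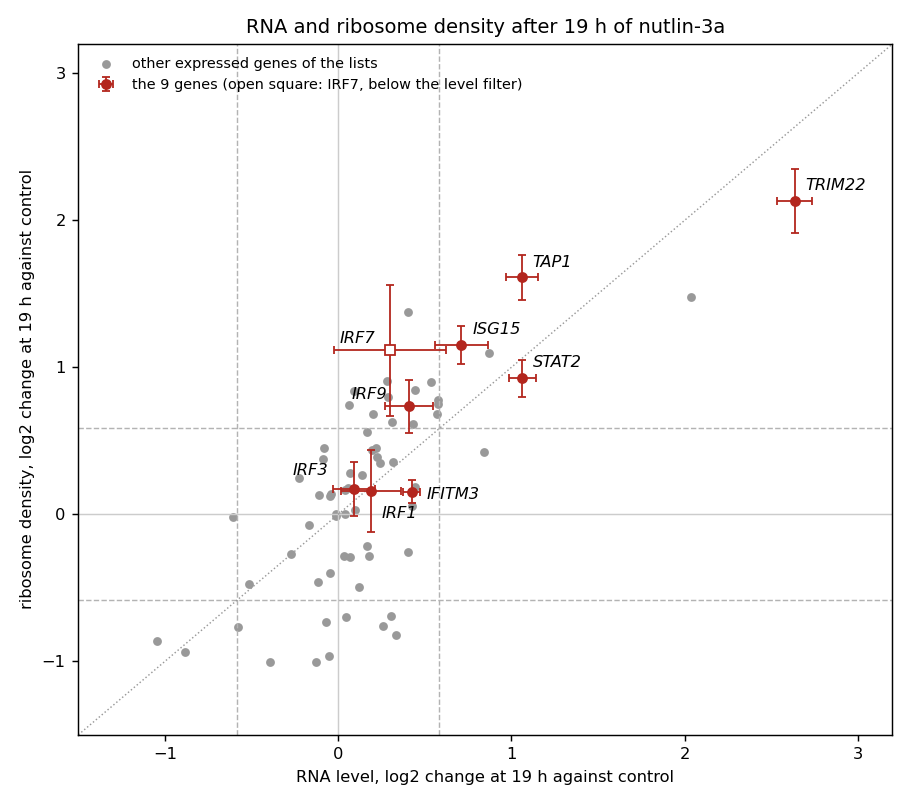
Log2 change at 19 h of ribosome density against that of RNA, for the 9 genes in red with 95% counting intervals and for the other expressed genes of the lists in grey. Dashed lines mark 1.5-fold and the dotted line equal change. TRIM22 is furthest out at 2.64 and 2.13, TAP1, ISG15, IRF9 and IRF7 lie above the line of equal change, and IRF1, IRF3 and IFITM3 lie within the dashed lines.

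Genes with a course like that of the most variable members were sought among all expressed genes, by Pearson r over the 10 libraries after centring each gene within each assay. The points share libraries and times, so r is a description. TRIM22 was most like ACTA2 (r = 0.999), CYFIP2 (0.999) and FDXR (0.994), and ACTA2 overlaps FAS in RefSeq. TAP1 was most like MLF2 (0.993), EPS8L2 (0.988) and BLCAP (0.986). STAT2, with its low value at 4 h, was like PEX6 (0.972) and MAP3K12 (0.972). Among the 9 genes the course of TRIM22 was closest to that of TAP1 (0.967) and ISG15 (0.919), while its r with STAT2 was 0.643 and with IRF1 -0.204.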

How the data were processed

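RNA-Seq and Ribo-Seq libraries of BJ cells were used as the authors deposited them, in FPKM values with 3 decimals, that is, fragment numbers scaled to transcript length and to the reads of the library. As the methods state, Bowtie was used by the authors to align reads to a single protein-coding transcript per gene of Ensembl release 65 and kept unique hits, so that reads shared by paralogs were lost. The submitters' processing notes also name hg19. Both tables have the same column names. The table with Ribo-Seq alone in its name was taken as that assay, the other as RNA-Seq. As a check, replication-dependent histone transcripts, which lack a poly(A) tail, had control values below 1 FPKM for 21 of 28 in the RNA-Seq table and 0 of 28 in the Ribo-Seq table. The methods describe Ribo-Seq levels from coding-sequence reads, while the columns say total. The 9 genes had the same transcript length from each table, so reads outside the coding sequence may be included. For the control, 6 h and 19 h Ribo-Seq libraries the paper lists such reads, with the largest share in the control. It also lists fewer reads in frame 0 for them than for its other Ribo-Seq libraries. How this bears on density and TE was not tested.

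Values were floored at 1 FPKM. Each library was set against the control of its assay as a log2 ratio, and called at 1.5-fold. Library totals, lengths and reads were worked out from the steps between FPKM values and tested on simulated data. They gave counting errors only and entered no test, since 1 library a group allows none. The 9 genes and the gene lists were chosen with earlier results of these data known. Beside the 9 genes, CDKN1A and MDM2, the text names of each list up to 2 genes with the largest rise and 2 with the largest fall of RNA at 19 h past 1.5-fold, paralogs of the 9 genes and, for the 3 genes with the widest RNA range, the 3 most alike, of which 1 is not reported here. Any other gene is said to have been chosen after its values were seen. Alternatives were a pseudocount of 1 FPKM, a floor of 5 FPKM, the 2 h library as baseline, centring on the median, no filter, a mean of at least 20 FPKM in each assay and a 2-fold threshold. Promoters and gene overlaps came from RefSeq (GRCh38.p14). Python 3.11.15, numpy 2.4.6, pandas 2.3.3 and matplotlib 3.10.9 were used.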

Additional observations from a re-analysis of the deposited data

Results flagged for a closer look

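For 4 of the 9 genes RNA or density lay on both sides of the control, beyond counting error, at different times of nutlin-3a. With 1 library a time these differences were not tested. STAT2 had a log2 change of RNA of -0.44 at 4 h and of 1.06 at 19 h, and of density of -0.45 at 4 h and 0.93 at 19 h. IFITM3 had -0.35 at 6 h and 0.42 at 19 h in RNA, and -0.29 at 2 h and 0.15 at 19 h in density. ISG15 had -0.18 at 2 h and 0.71 at 19 h in RNA. IRF9 had -0.22 at 2 h and 0.41 at 19 h in RNA.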

How the results depend on the processing

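No paired analysis was possible because each group holds 1 library and the labels give no replicate numbers. No single change past 1.5-fold against control had the opposite sign in an alternative that gave a value for it. Changes short of 1.5-fold did with the 2 h library as baseline, such as RNA of IRF1 at 6 h (0.03 and -0.65) and TE of IRF9 at 19 h (0.32 and -0.17). With a pseudocount of 1 FPKM or a floor of 5 FPKM, every count of the 8 genes that rose or fell was as reported. Centred on the median, 1 gene rose in density at 4 h in place of 3, none rose in TE at 4 h in place of 1 (count 0), 1 fell in TE at 4 h (TRIM22) and 1 rose in TE at 19 h (TAP1), in place of 0 each. With the 2 h library as baseline, RNA rose for 4 genes at 6 h and 5 at 19 h in place of 3 and 4, and density rose for 1 gene at 4 h, 3 at 6 h and 3 at 19 h in place of 3, 5 and 5. Of all expressed genes 8.04% rose in RNA and 8.71% in density at 19 h with that baseline. In that setting TE rose for 0 at 4 h and 1 at 6 h, RNA fell for 1 at 6 h (IRF1), density fell for 1 at 4 h and TE for 1 at 19 h (STAT2 in both). With no filter, IRF7 is counted, and 1 gene rose in TE at 6 h and 1 at 19 h. With a mean of at least 20 FPKM, 5 of the 9 genes were left, of which RNA rose for 0, 1, 2 and 3 at 2, 4, 6 and 19 h, density for 1 at 4 h, 3 at 6 h and 3 at 19 h, and TE for 0 at 4 h. Of all genes left by that filter 6.54% rose in RNA and 15.5% in density at 19 h. At a 2-fold threshold RNA rose for 0, 1, 2 and 3 at 2, 4, 6 and 19 h, density for 1 at 4 h, 2 at 6 h and 3 at 19 h, and TE for 0 at 4 h. Of all expressed genes 2.49% rose by that threshold in RNA and 6.22% in density at 19 h. For the lists at 19 h, the interferon-stimulated genes that rose in RNA numbered 4 as reported, 1 to 6 under the alternatives, those that rose in density 8 as reported and 2 to 10, those that fell in density 7 as reported and 1 to 8, and the antigen presentation genes that rose in density 8 as reported and 2 to 9. Over all genes counted in an alternative, 2.49% to 9.14% rose in RNA at 19 h and 6.22% to 21.3% in density. Under the alternatives, such shares were not worked out for falls, for TE or for other times. The cause of these differences was not tested beyond the construction of each setting, which changes the genes counted, the threshold or the reference library. Depth limits IRF7 most, with 68 reads in the Ribo-Seq control, and the Ribo-Seq library of 19 h had the smallest scaling total, 7745000 reads. An interval that reaches 0 does not show that a gene did not differ, and no spread between cultures could be measured.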

Other observations

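Among other immune genes reported as p53 targets, 4 of 10 listed were expressed. In RNA at 19 h 1 of the 4 rose and none fell, beside 7.13% and 14.6% of all expressed genes. In density 1 rose and 1 fell, beside 15% and 29.8%. IFI16 and ERAP1, named after their values were seen, did not pass the threshold. RNA of IFI16 was 38.7 FPKM in the control and 40.6 FPKM at 19 h, and that of ERAP1 6.15 and 6.78 FPKM. APOBEC3C, a cytidine deaminase that restricts retroviruses, had 19.5 FPKM of RNA in the control and 17.5, 32.3, 64.0 and 80.0 FPKM at 2, 4, 6 and 19 h of nutlin-3a, and a density of 27.4, 24.0, 49.4, 78.6 and 76.4 FPKM. Its values at 6 h and 19 h lay above those of the first 3 libraries in both assays, as they did for TRIM22, TAP1, STAT2, ISG15 and IRF7. CCL2, a chemokine that draws monocytes, named after its values were seen, had its highest level at 4 h in both assays, with RNA at 48.8, 99.1, 135, 53.4 and 61.5 FPKM and density at 90.8, 131, 251, 69.0 and 51.3 FPKM.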
